A study of Homo sapiens with 6 samples.

Results

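BMF, the 4 other BH3-only genes BCL2L11 (which encodes BIM), BID, PMAIP1 (NOXA) and BBC3 (PUMA), the anti-apoptotic genes BCL2, BCL2L1 (BCL-X) and MCL1, and the effectors BAX and BAK1 were followed in bladder cancer cells after knockdown of circPTK2. The 10 genes are 10 of the 30717 genes with a symbol in the deposited table. They were taken by symbol, and their transcripts were summed per gene. The set was chosen by the CPM values of these genes in the same libraries, where BMF and BCL2L11 stood out between knockdown and control, so the knockdown and line differences of the 10 genes are given as a description, with no p-value for any of them. How many of the 10 were called in the fit over all genes is given beside the share of all genes called.

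RNA was sequenced from T24 and UMUC3 (UM-UC-3), established human cell lines derived from bladder carcinoma. The groups were T24 with circPTK2 knockdown (2 libraries), the T24 control (1 library), UMUC3 with circPTK2 knockdown (2 libraries) and the UMUC3 control (1 library). circPTK2 is a circular RNA from the PTK2 locus, and the series' title places it with PABPC1 and SETDB1 in tumour spread and gemcitabine resistance. The sample titles number the knockdowns of each line si-circPTK2-1 and si-circPTK2-2, called si-1 and si-2 here, while the design text speaks of sh- constructs, so the kind of reagent was not settled. Neither gemcitabine nor another agent is named for any library.

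Apoptosis through mitochondria is decided by binding between members of the BCL2 family. BAX and BAK1 form the pores that release cytochrome c, the anti-apoptotic proteins BCL2, BCL-XL and MCL1 hold BAX, BAK1 and the BH3-only proteins in check, and the BH3-only proteins bind the anti-apoptotic ones or activate BAX and BAK1 directly. The binding runs through the BH3 motif, a short helix with a conserved leucine and a conserved aspartate. Transcription of BMF and BCL2L11 is known to respond to loss of adhesion, to stress kinases and to withdrawal of growth factors.

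The 10-codon core of the motif (30 bases) is shown for each gene because it decides below which transcripts can encode it. The cores were read from the coding sequence of 1 transcript per gene in GENCODE v29 on GRCh38. Capitals mark the leucine codon and the pair of codons for glycine or alanine followed by aspartate.
BMF: cgaaagCTTcagtgcattGCAGACcagttc
BCL2L11: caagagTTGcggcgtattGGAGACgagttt
BID: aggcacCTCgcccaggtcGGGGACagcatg
PMAIP1: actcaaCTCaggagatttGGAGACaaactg
BBC3: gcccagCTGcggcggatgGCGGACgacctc
BCL2: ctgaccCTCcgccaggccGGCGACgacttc
BCL2L1: caagcgCTGagggaggcaGGCGACgagttt
MCL1: gagaccTTAcgacgggttGGGGATggcgtg
BAX: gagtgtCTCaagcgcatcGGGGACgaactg
BAK1: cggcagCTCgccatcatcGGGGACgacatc
The BMF core lies at chr15:40104201-40104230 on the minus strand, in exon 4 of BMF-201, and starts at codon 137 of 184. The BCL2L11 core lies at chr2:111150097-111150126 on the plus strand, in exon 3 of BCL2L11-206, and starts at codon 152 of 198. BMF and BBC3 carry alanine before the aspartate, and the other 8 genes carry glycine.

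The promoters of BMF and BCL2L11 are shown because these genes had the largest knockdown differences of the 10. The 250 bases upstream of a RefSeq start (GRCh38.p14), the first listed where a gene has several, are printed 5′ to 3′ on the strand of the gene. Motifs were searched on both strands as GTAAACA (FOXO), TGANTCA (AP-1), CACGTG (E-box) and GGGCGG (GC box), and matches are in capitals.
BCL2L11, chr2:111120664-111120913, plus strand: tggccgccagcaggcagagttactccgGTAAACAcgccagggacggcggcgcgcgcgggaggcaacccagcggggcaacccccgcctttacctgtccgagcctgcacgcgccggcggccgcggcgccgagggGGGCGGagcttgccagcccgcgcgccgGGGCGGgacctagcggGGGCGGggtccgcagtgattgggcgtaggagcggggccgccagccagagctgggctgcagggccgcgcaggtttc
BMF, chr15:40108880-40109129, minus strand: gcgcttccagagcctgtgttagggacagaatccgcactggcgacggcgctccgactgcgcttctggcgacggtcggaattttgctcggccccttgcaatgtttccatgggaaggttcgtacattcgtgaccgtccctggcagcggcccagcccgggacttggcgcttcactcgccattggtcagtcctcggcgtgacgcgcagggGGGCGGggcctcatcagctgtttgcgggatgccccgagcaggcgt
The BCL2L11 window holds 1 FOXO match, 223 bases before the start, and 3 GC boxes. The BMF window shown holds 1 GC box, 45 bases before the start, and none of the other 3 motifs. Another RefSeq window of BMF, not shown, held no match to any of the motifs. Of 35116 promoter windows of the same length, 2.98% hold the FOXO letters, 6.57% the AP-1 letters, 6.34% the E-box and 42.6% the GC box. RefSeq windows were matched for 9 of the 10 genes, and no window of the other genes of the family held the FOXO letters.

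Library totals ran over 65111683 to 72362436 counts, and 55071837 to 60780176 of them belonged to genes with a symbol. Levels are CPM, counts scaled to the library total and then between libraries by the trimmed mean of M-values (TMM). The circle itself was not analysed here, since the counts are of annotated transcripts. The level of PTK2, its host gene, does not check the knockdown, and it was 67.2 and 63.0 CPM in T24 knockdown against 45.9 CPM in the T24 control. In UMUC3 it was 161 and 393 CPM with knockdown against 124 CPM in the UMUC3 control. The lines were checked against markers. The uroplakins UPK1A, UPK1B, UPK2 and UPK3B and the keratin KRT20, which define differentiated urothelium, stayed at or below 0.774 CPM in every library, and the cadherin CDH1 at or below 0.135 CPM. GATA3 stood at 44.2 to 73.5 CPM and KRT8 at 1481 to 1691 CPM in T24, against 0.657 to 0.824 CPM and 81.4 to 91.0 CPM in UMUC3, and VIM at 131 to 202 CPM in T24 against 3166 to 3270 CPM in UMUC3. Of the mesenchymal markers listed with VIM, CDH2 went the other way, at 188 to 325 CPM in T24 against 56.6 to 78.2 CPM in UMUC3. ZEB1 overlapped between the lines, at 9.72 to 41.0 CPM in T24 and 17.5 to 165 CPM in UMUC3. The leukocyte marker PTPRC did not exceed 0.0673 CPM. The endothelial cadherin CDH5 was at 64.5 to 75.5 CPM in T24 and 0 in UMUC3. In bulk RNA, fewer cells that express a gene and less of its RNA per cell cannot be told apart.

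The question of the knockdown comparison is which family genes differ when circPTK2 is lowered. BMF, which binds anti-apoptotic proteins after release from the cytoskeleton, had the largest difference in each line, with opposite signs. In T24 it was at 29.6 and 31.8 CPM in the knockdown libraries (si-1 and si-2), against 4.19 CPM in the control. In UMUC3 it was at 0.143 and 0.394 CPM in the knockdown libraries, against 1.97 CPM in the control, which are 8 and 24 counts against 110 counts. Both T24 knockdown libraries thus lay above their control and both UMUC3 knockdown libraries below theirs. The knockdown mean was 7.32 times the control in T24, with log2 fold change 2.87 ± 0.65 (SE, 2 knockdown libraries and 1 control). In UMUC3 it was 7.34-fold lower than the control, with log2 fold change -2.86 ± 0.58.

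BCL2L11, whose product BIM activates BAX and BAK1 and binds all the anti-apoptotic members, was at 21.0 and 17.2 CPM in T24 knockdown, against 5.01 CPM in the T24 control. In UMUC3 BCL2L11 was at 20.6 and 23.0 CPM in knockdown, against 17.2 CPM in the control. The T24 control was the low library, and the other 5 lay between 17.2 and 23.0 CPM. The log2 fold change was 1.93 ± 0.25 in T24 (3.81-fold on the means) and 0.34 ± 0.23 in UMUC3 (1.27-fold).

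**Figure D1:**
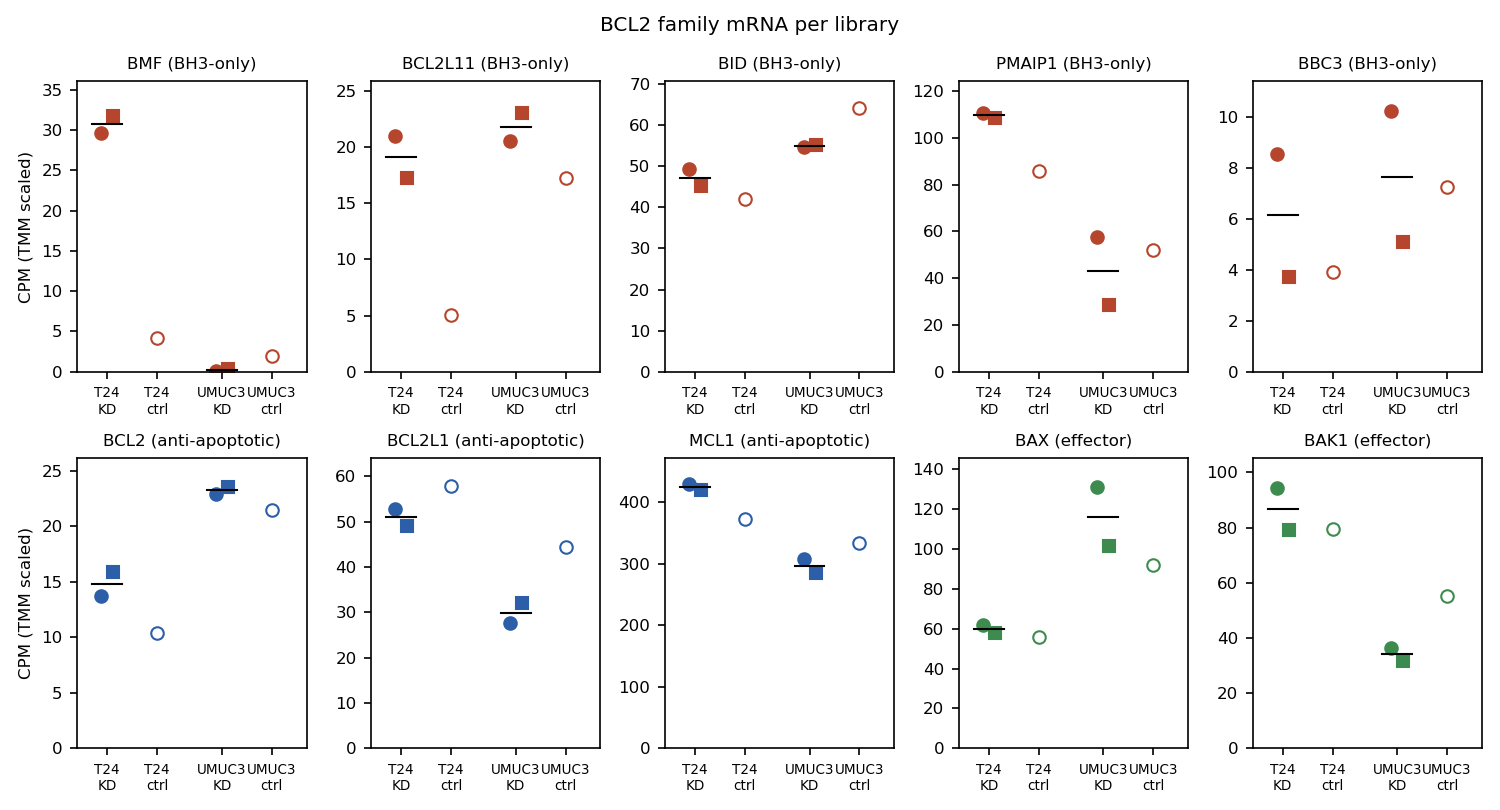
Level of each of the 10 genes per library, in CPM on a linear axis that starts at 0 and differs between panels. Filled symbols are the knockdown libraries (circle si-1, square si-2), open circles the single control of each line, and the bar is the mean of the knockdown libraries (n = 2). On these axes knockdown and control stand farthest apart for BMF and BCL2L11 in T24, at 29.6 and 31.8 against 4.19 CPM and at 21.0 and 17.2 against 5.01 CPM. As a ratio, BMF in UMUC3 (knockdown mean 7.34-fold lower) was farther apart than BCL2L11 in T24 (3.81-fold higher), which the linear axis hides.

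The other 3 BH3-only genes differed less. BID, which caspase-8 cleaves to link death receptors to mitochondria, was at 49.2 and 45.1 CPM in T24 knockdown against 41.9 CPM in the control, and at 54.7 and 55.1 CPM in UMUC3 knockdown against 64.2 CPM in the control. Its knockdown libraries were above the control in T24 and below it in UMUC3, by log2 0.17 ± 0.13 and -0.23 ± 0.13. PMAIP1, which encodes the MCL1 binder NOXA, was at 111 and 109 CPM in T24 knockdown against 85.9 CPM in the control (log2 0.35 ± 0.46). In UMUC3 PMAIP1 was at 57.5 and 28.4 CPM in knockdown against 52.2 CPM in the control (-0.28 ± 0.45), so that si-1 lay above and si-2 below the control. BBC3, which encodes PUMA, was at 8.54 and 3.73 CPM in T24 knockdown against 3.90 CPM in the control, and at 10.2 and 5.07 CPM in UMUC3 knockdown against 7.23 CPM in the control. In both lines si-1 was above and si-2 below the control, and the log2 values were 0.65 ± 0.74 in T24 and 0.08 ± 0.72 in UMUC3.

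Among the anti-apoptotic genes, BCL2L1 was the one with knockdown below control in both lines. It was at 52.8 and 49.1 CPM in T24 knockdown against 57.8 CPM in the control, and at 27.7 and 32.0 CPM in UMUC3 knockdown against 44.3 CPM in the control. The log2 differences were -0.18 ± 0.16 in T24 and -0.57 ± 0.16 in UMUC3, where the knockdown mean was 1.49-fold lower. BCL2, the founding member of the family, was at 13.8 and 15.8 CPM in T24 knockdown against 10.4 CPM in the control, and at 22.9 and 23.6 CPM in UMUC3 knockdown against 21.5 CPM in the control. Its knockdown libraries were above the control in both lines, by log2 0.51 ± 0.20 in T24 and 0.11 ± 0.20 in UMUC3. MCL1, a short-lived protein that restrains BIM and BAK1, was at 429 and 419 CPM in T24 knockdown against 373 CPM in the control. It was at 308 and 285 CPM in UMUC3 knockdown against 333 CPM in the control. These are small differences of opposite sign, log2 0.19 ± 0.09 in T24 and -0.17 ± 0.08 in UMUC3.

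Of the effectors, BAX was at 62.1 and 58.0 CPM in T24 knockdown against 55.9 CPM in the control, and at 131 and 101 CPM in UMUC3 knockdown against 92.0 CPM in the control. Both knockdown libraries of each line were above the control, by log2 0.10 ± 0.20 in T24 and 0.34 ± 0.20 in UMUC3. With protein-coding transcripts alone the T24 value was -0.01. BAK1 was at 94.3 and 79.3 CPM in T24 knockdown against 79.5 CPM in the control, where the libraries lay on both sides (log2 0.13 ± 0.18). In UMUC3 BAK1 was at 36.5 and 31.6 CPM in knockdown against 55.1 CPM in the control, a knockdown mean 1.62-fold lower (log2 -0.70 ± 0.18).

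Counted over the family, both T24 knockdown libraries lay above the control for 7 of the 10 genes and below it for 1 (BCL2L1), beside 34.7% and 37.3% of all 20721 tested genes. In UMUC3 both lay above for 3 (BCL2L11, BCL2 and BAX) and below for 5 (BMF, BCL2L1, MCL1, BAK1 and BID), beside 35.6% and 37.1% of all genes. BMF, MCL1 and BID lay on opposite sides in the lines, a pattern that 24.4% of all genes had. An absolute log2 difference of at least 1 was reached by 2 of the 10 genes in T24 (21.2% of all genes) and by 1 in UMUC3 (24.7%). By edgeR's quasi-likelihood test with Benjamini-Hochberg adjustment over all genes at 0.05, 0 of the 10 genes were called in T24 (0.00965% of all genes), 0 in UMUC3 (0.0627%) and 0 for the difference between the lines (0.0241%). At an unadjusted p under 0.05 the counts were 2 (12.2% of all genes), 3 (16.9%) and 4 (14.3%). By DESeq2's adjusted p they were 2 in T24 (4.65% of all genes), 1 in UMUC3 (8.2%) and 2 for the difference (5.41%). As these comparisons chose the genes, the counts are given without being read. The 2 genes called in T24 were JUN, a subunit of AP-1 (log2 5.09 ± 0.09, adjusted p = 0.0152), and LTBP2 (3.87 ± 0.10, adjusted p = 0.0381), both named after their values were seen.

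**Figure D2:**
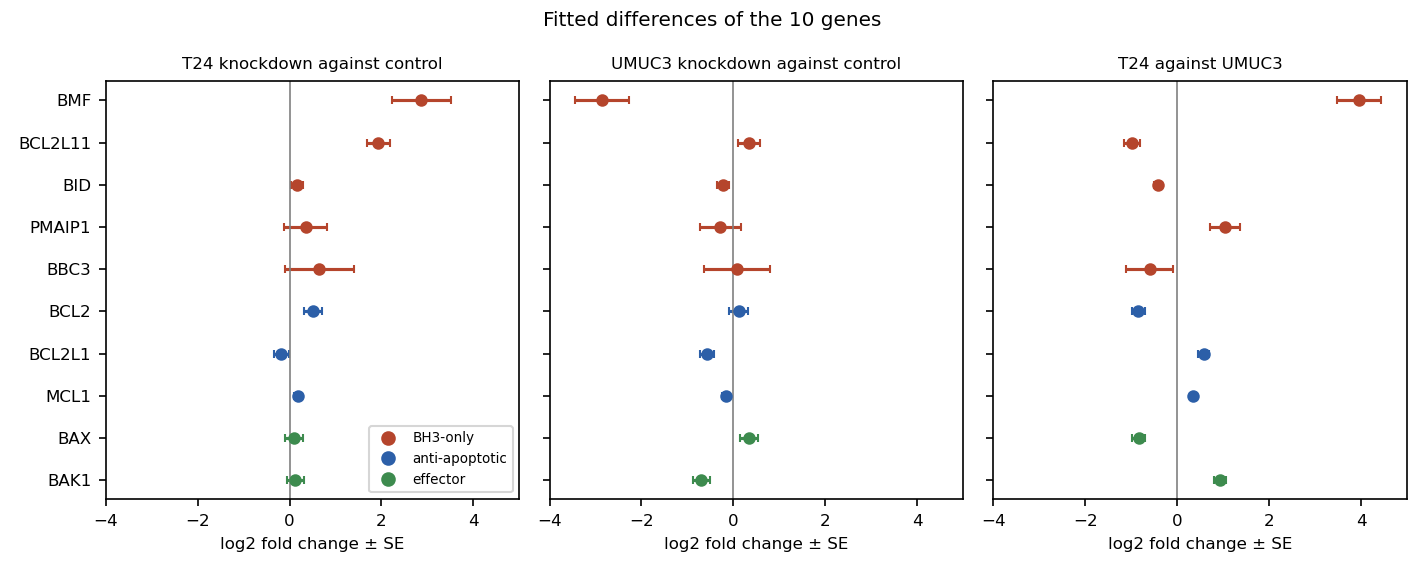
Fitted log2 fold change of the 10 genes with its standard error (horizontal bars), for knockdown over control in T24, knockdown over control in UMUC3, and T24 over UMUC3. BMF stands at 2.87 in T24 and -2.86 in UMUC3, and between the lines at 3.95. The colours give the role of the gene.

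Per transcript length, in TPM (length-scaled counts as a share of all such counts in a library), MCL1 and BAX had the highest medians of the family, in an order that differed between the lines, and in T24 si-2 PMAIP1 (114 TPM) was also above BAX. MCL1 was above BAX in the 3 T24 libraries, at 225 and 219 TPM against 128 and 100 TPM in knockdown and at 205 against 108 TPM in the control. It was below BAX in the 3 UMUC3 libraries, at 160 and 155 TPM against 253 and 172 TPM in knockdown and at 176 against 184 TPM in the control. These values sum all transcripts of a gene, and a count weighs more in a short one. For BAX they include retained-intron transcripts and BAX-213, of 458 bases and without the BH3 core. BAX-213 had 891 and 62 counts in UMUC3 knockdown (si-1 and si-2) and 524 in the control. Whether the order of MCL1 and BAX holds without such transcripts was not tested. PMAIP1 (32.7 to 116 TPM), BAK1 (29.1 to 89.1 TPM), BID (42.6 to 79.3 TPM) and BCL2L1 (26.8 to 58.5 TPM) formed a middle group whose ranges overlapped. BCL2L11 (4.03 to 10.9 TPM), BBC3 (4.75 to 14.2 TPM) and BCL2 (3.40 to 8.27 TPM) were low and overlapped too. BMF was at 15.8 and 17.7 TPM in T24 knockdown against 2.36 TPM in the T24 control, and 0.0572 and 0.165 TPM in UMUC3 knockdown against 0.800 TPM in the UMUC3 control. In T24 knockdown BMF therefore stood above BCL2L11 (10.9 and 7.87 TPM), and in the T24 control below it (4.03 TPM).

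Summed by role on the same scale, the 5 BH3-only genes came to 202 and 191 TPM in T24 knockdown against 145 TPM in the T24 control, and to 132 and 123 TPM in UMUC3 knockdown against 152 TPM in the UMUC3 control. The 3 anti-apoptotic genes came to 285 and 272 TPM in T24 knockdown against 267 TPM in the control, and to 194 and 194 TPM in UMUC3 knockdown against 221 TPM in the control. The effectors came to 217 and 175 TPM in T24 knockdown against 185 TPM in the control, and to 285 and 202 TPM in UMUC3 knockdown against 233 TPM in the control. The BH3-only sum and the anti-apoptotic sum were each above the control in both T24 knockdown libraries and below it in both UMUC3 ones. In UMUC3 the BH3-only sum includes BID at 52.0 and 73.2 TPM in knockdown against 79.3 TPM in the control. Part of this is BID-206, a transcript of 638 bases without a reading frame. It had 1 and 523 counts in UMUC3 knockdown (si-1 and si-2) against 483 in the control. Whether the UMUC3 side of the sum holds without it was not tested. The effector sum lay on both sides of the control in each line. PMAIP1 gave the largest part of the BH3-only sum in T24, at 116 and 114 TPM in knockdown and 91.8 TPM in the control.

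The counts were deposited per transcript, which allowed the share of each gene that fell in transcripts with the BH3 core to be taken. The shares are of counts that the authors' pipeline assigned to transcripts, and the exact (Clopper-Pearson) 95% intervals cover counting error only, not that assignment. For BMF, BMF-201 held nearly all counts, and 97.2% to 100% of them were in transcripts with the core in every library. For BCL2L11 the share was 96.3% (95.1 to 97.3) in T24 si-1 and 10.4% (8.55 to 12.4) in T24 si-2, against 90.6% (86.7 to 93.7) in the T24 control. In UMUC3 it was 98.5% and 99.2% in knockdown, against 96.9% in the control. T24 si-2 was thus the only low library of the 6 for this gene.

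In T24 si-2, 896 of the 1024 BCL2L11 counts were given to BCL2L11-219, a frame of 135 codons without the core. That transcript had 0 counts in the other 5 libraries, which allows shares of up to 0.214% to 1.01% there. BCL2L11-206, whose 198 codons are the length of the long form BIM-EL, held 672 of 1251 counts in T24 si-1 and 0 of 1024 in T24 si-2, against 200 of 298 in the T24 control. BCL2L11-218, of 85 codons and with the core, took another 461 counts in T24 si-1, against 1 in the T24 control. Counted over transcripts with the core, BCL2L11 was at 20.3 and 1.78 CPM in T24 knockdown, against 4.54 CPM in the T24 control, so the knockdown libraries lay on both sides. The log2 fold change fitted to those counts was 1.28, where the whole gene gave 1.93. The gene total was close in si-1 and si-2, while 92.6% of its counts changed transcript between them, and whether the assignment or the RNA differed was not tested. MIR4435-2HG overlaps BCL2L11 on the opposite strand by 727 exon bases, and it had 1033 and 1019 counts in T24 knockdown against 909 in the T24 control.

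**Figure D3:**
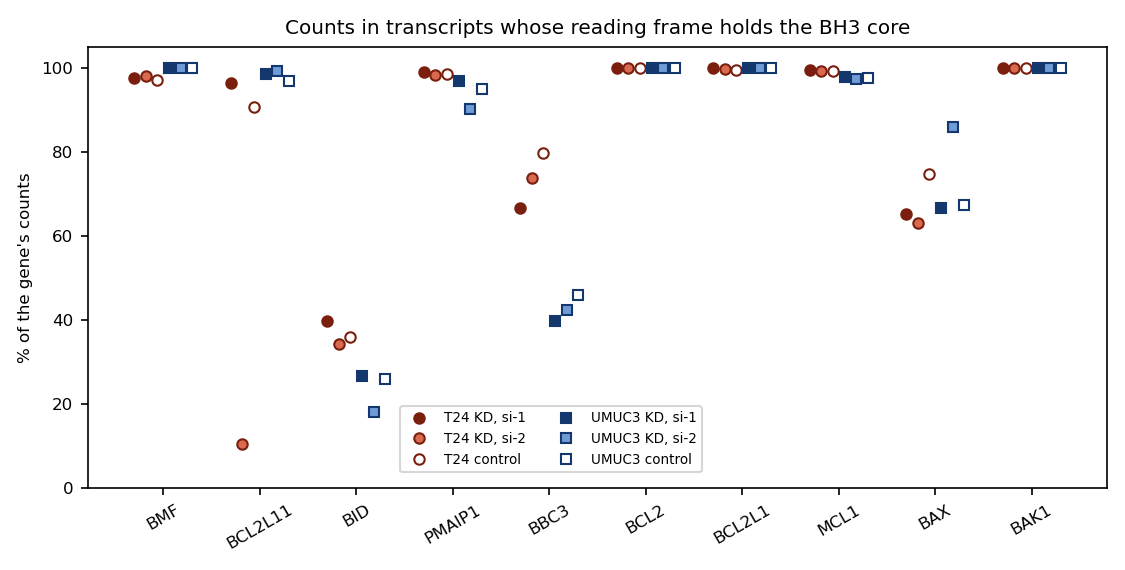
Percent of each gene's counts that fell in transcripts whose reading frame holds the BH3 core, per library. Circles are T24 and squares UMUC3, filled symbols are knockdown libraries and open symbols controls. BCL2L11 in T24 si-2 stands at 10.4%, with the other 5 libraries between 90.6% and 99.2%.

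For BCL2L1 the core was in 99.6% to 100% of counts, but the frames differed. BCL2L1-202, whose 170 codons are the length of the short pro-apoptotic form BCL-XS, held 58.7% (57.0 to 60.5) and 62.7% (60.9 to 64.5) of the gene in T24 knockdown, against 55.3% (53.6 to 57.0) in the T24 control. In UMUC3 it held 38.4% (36.0 to 40.9) and 69.9% (67.8 to 71.9) in knockdown, against 19.2% (17.7 to 20.8) in the control. The transcripts of 233 codons, the length of the anti-apoptotic BCL-XL, held 25.1% and 25.0% in T24 knockdown against 31.8% in the control, and 45.4% and 19.7% in UMUC3 knockdown against 75.2% in the control. In each line both knockdown libraries were on the same side of the control, although the UMUC3 knockdown libraries differed from each other, with 36.8% of the counts in other transcripts. Reads shared by these transcripts can be divided between them in more than one way, and the antisense gene ABALON overlaps BCL2L1 by 1424 exon bases. ABALON had 2187 and 2404 counts in T24 knockdown against 2146 in the T24 control, and 788 and 617 counts in UMUC3 knockdown against 389 in the UMUC3 control. Without the BCL2L1 transcripts that lie in the overlap, the gene's log2 fold change was -0.21 in T24 and -0.67 in UMUC3.

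**Figure D4:**
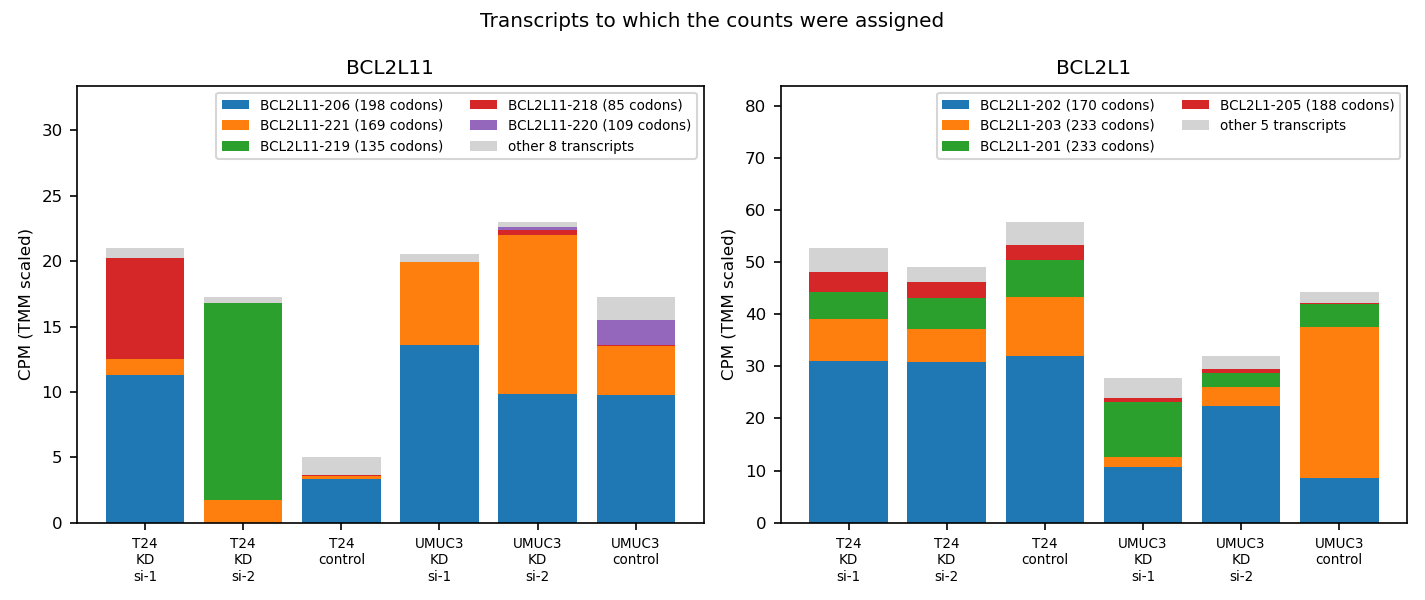
CPM of BCL2L11 (left) and BCL2L1 (right) split by the transcript to which counts were assigned, 1 bar per library, with knockdown libraries left of the control of each line. The codons in the legend are the length of the annotated reading frame. The BCL2L11 bar of T24 si-2 is almost wholly BCL2L11-219, and the BCL2L1 bar of the UMUC3 control is mostly a transcript with the 233-codon frame.

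The remaining genes also differed in how much of their RNA could encode the motif. BID had the core in 39.9% and 34.4% of counts in T24 knockdown against 36.0% in the T24 control, and in 26.7% and 18.1% in UMUC3 knockdown against 26.0% in the UMUC3 control. Its main transcript, BID-203, has a frame of 99 codons without the core and held 48.4% to 65.4% of the counts. BBC3 had the core in 66.7% and 73.9% in T24 knockdown against 79.7% in the control, and in 39.8% and 42.4% in UMUC3 knockdown against 46.0% in the control, with retained-intron transcripts among the rest. Both knockdown libraries were below the control in each line, and all T24 libraries were above all UMUC3 libraries. By the intervals for counting error, T24 si-1 (62.4 to 70.8) lay below the T24 control (74.0 to 84.7). T24 si-2 (67.6 to 79.5) overlapped that control. In UMUC3 si-1 (35.8 to 43.9) and si-2 (36.8 to 48.1) overlapped the control (41.1 to 51.0). How often other genes show such a pattern of shares was not tested. BAX ranged from 63.0% to 85.9%, PMAIP1 from 90.2% to 99.0% and MCL1 from 97.3% to 99.6%, while BCL2 and BAK1 were at 100% in every library. MCL1 and BAK1 kept their transcripts, with at most 1.48% and 0.578% of counts changing transcript between any 2 libraries of a line.

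Line against line, all 3 T24 libraries were above all 3 UMUC3 libraries for 5 genes, BMF, BCL2L1, MCL1, BAK1 and PMAIP1, beside 27.2% of all tested genes. They were below for 3, BCL2, BAX and BID, beside 25.1% of all genes, and the lines overlapped for BCL2L11 and BBC3. The log2 differences, with knockdown and control of a line weighted equally, were 3.95 ± 0.47 for BMF, 1.04 ± 0.33 for PMAIP1, 0.94 ± 0.13 for BAK1, 0.58 ± 0.11 for BCL2L1 and 0.34 ± 0.06 for MCL1. They were -0.98 ± 0.16 for BCL2L11, -0.85 ± 0.14 for BCL2, -0.84 ± 0.14 for BAX, -0.42 ± 0.09 for BID and -0.60 ± 0.51 for BBC3. The effectors thus differed between the lines in opposite directions. Mean BAX was at 58.7 ± 3.2 CPM in T24 and 108 ± 20.5 CPM in UMUC3. Mean BAK1 was at 84.4 ± 8.6 CPM in T24 and 41.1 ± 12.4 CPM in UMUC3 (SD over the 3 libraries of a line). CPM does not rank 1 gene against another, and per transcript length BAX (100 to 253 TPM) was above BAK1 (29.1 to 89.1 TPM) in every library. Between the controls alone, T24 over UMUC3 was 2.13 for BMF, 0.291 for BCL2L11, 0.485 for BCL2 and 1.44 for BAK1. By edgeR's test 8 of the 10 genes were called between the lines, beside 38.8% of all genes, and nothing is read from that count. The count of members was lower without T24 si-1 or without T24 si-2, and it was 4 with a replicate block under either numbering. The count over all genes was lower under each of these settings too, and nothing is read from the drop.

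The genes whose levels ran most like those of BMF and BCL2L11 were taken by Pearson's r of log2(CPM + 0.5) over the 6 libraries, among 11138 genes with a mean of at least 5 CPM. For BMF they were CXCL8 (r = 0.999), the chemokine IL-8, ZFAND5 (0.999) and AGFG1 (0.998). CXCL8 was at 218 and 245 CPM in T24 knockdown against 59.3 CPM in the T24 control, and at 16.7 and 21.0 CPM in UMUC3 knockdown against 39.2 CPM in the UMUC3 control. For BCL2L11 they were DDI2 (0.993), UBAP1 (0.993) and IER3 (0.992), the last an immediate early gene. IER3 was at 107 and 101 CPM in T24 knockdown against 38.2 CPM in the T24 control, and at 123 and 120 CPM in UMUC3 knockdown against 104 CPM in the UMUC3 control. The 6 libraries come from 2 lines, and these r values are the highest of many, so they describe likeness only.

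The rest of the pathway was read from 65 other genes in 4 lists, of which 63 were tested. The lists were chosen with earlier results of these data known, so the counts here and below are a description. In T24 0 of the 63 passed edgeR's adjusted threshold in either direction, and limma-voom called 0. At edgeR's unadjusted p under 0.05 there were 17, beside 12.2% of all tested genes. DESeq2 called 5, beside 4.65% of all tested genes. Of the 63, 34 had positive and 29 negative log2 fold changes, with a median of 0.05 beside 0 over all tested genes. By list, positive and negative values numbered 5 and 8 among other BCL2 family genes (median -0.20), 10 and 10 among apoptosome, caspase and release genes (0.00), 8 and 2 in the death receptor branch (0.24) and 11 and 9 among regulators and partners (0.08). The smallest p among death receptor genes belonged to the TRAIL receptors. TNFRSF10A was at 48.0 and 49.3 CPM in T24 knockdown against 25.9 CPM in the control (log2 0.91 ± 0.12, edgeR adjusted p = 0.150). TNFRSF10B was at 191 and 188 CPM against 138 CPM (0.46 ± 0.08, edgeR adjusted p = 0.199). BIRC2, which encodes the inhibitor of apoptosis cIAP1, was at 115 and 120 CPM in knockdown against 42.1 CPM in the control (1.48 ± 0.35, edgeR adjusted p = 0.286). BECN1, an autophagy protein that binds BCL2 through a BH3 motif, was at 15.5 and 19.9 CPM in knockdown against 39.1 CPM in the control (-1.15 ± 0.23, edgeR adjusted p = 0.242). The BH3-only gene BAD was at 74.2 and 66.5 CPM in knockdown against 109 CPM in the control (-0.63 ± 0.13, edgeR adjusted p = 0.250). The mitochondrial channel VDAC2 had log2 0.45 ± 0.09, the cell cycle factor E2F1 -0.63 ± 0.12 and the kinase MAPK3 (ERK1) -0.61 ± 0.12, with edgeR adjusted p = 0.233, 0.232 and 0.239. DESeq2 called TNFRSF10A and BIRC2 higher and BECN1, E2F1 and MAPK3 lower.

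In UMUC3 0 of the 63 passed edgeR's adjusted threshold either, and limma-voom called 0. At edgeR's unadjusted p under 0.05 there were 21, beside 16.9% of all tested genes. DESeq2 called 15, beside 8.2% of all tested genes. Of the 63, 32 had positive and 30 negative values, with a median of 0.01 beside 0 over all genes. By list they numbered 7 and 6 among other BCL2 family genes (median 0.04), 12 and 8 among apoptosome, caspase and release genes (0.03), 3 and 7 in the death receptor branch (-0.28) and 10 and 9 among regulators and partners (0.07). BNIP3L, a mitophagy receptor related to the family, was at 237 and 270 CPM in UMUC3 knockdown against 96.4 CPM in the control (log2 1.39 ± 0.12, edgeR adjusted p = 0.0631). With no filter on low counts it was the 1 gene of the lists called, with edgeR adjusted p = 0.0350. CFLAR, the inhibitor of caspase-8 known as c-FLIP, was at 13.0 and 9.64 CPM in knockdown against 31.5 CPM in the control (-1.47 ± 0.25, edgeR adjusted p = 0.122). CASP10 had 0 CPM in both knockdown libraries and 0.286 CPM in the control (edgeR adjusted p = 0.109). The decoy receptor TNFRSF10D was at 85.7 and 82.5 CPM in knockdown against 154 CPM in the control (-0.88 ± 0.10, edgeR adjusted p = 0.0779), and BCL2L12 at 38.2 and 29.0 CPM against 86.5 CPM (-1.37 ± 0.21, edgeR adjusted p = 0.114).

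The difference between the lines was tested as an interaction. By edgeR's adjusted threshold 0 of the 63 genes passed, and limma-voom called 0. At edgeR's unadjusted p under 0.05 there were 23, beside 14.3% of all tested genes. DESeq2 called 12, beside 5.41% of all tested genes. MAPK3, whose product phosphorylates BIM, was at 38.3 and 40.1 CPM in T24 knockdown against 59.9 CPM in the T24 control, and at 59.0 and 59.6 CPM in UMUC3 knockdown against 25.1 CPM in the UMUC3 control (difference -1.85 ± 0.18, edgeR adjusted p = 0.129). E2F1 was at 91.4 and 92.7 CPM in T24 knockdown against 142 CPM in the T24 control, and at 92.0 and 81.1 CPM in UMUC3 knockdown against 44.0 CPM in the UMUC3 control (-1.61 ± 0.18, edgeR adjusted p = 0.134). For both genes the knockdown libraries were below the control in T24 and above it in UMUC3. The lowest p among the other lists belonged to BNIP3L (-1.52 ± 0.16, edgeR adjusted p = 0.133), BCL2L13 (-1.17 ± 0.27, 0.239), TNFRSF10B (0.81 ± 0.11, 0.165) and TNFRSF10D (0.99 ± 0.14, 0.166). CASP10 had edgeR adjusted p = 0.189 and rests on the near absence of counts in UMUC3.

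Between the lines, 24 of the 63 genes were higher and 16 lower in T24 by edgeR's test, beside 20.8% and 17.9% of all genes, with a median log2 difference of 0.25 beside 0.02. By list, 6 were higher and 4 lower of 13 other BCL2 family genes, 5 and 4 of 20 apoptosome, caspase and release genes, 3 and 3 of 10 death receptor genes, and 10 and 5 of 20 regulators and partners. Without T24 si-1 the count of 40 became 26. FOXO1, a transcription factor that is known to activate BCL2L11, was at 67.0, 74.0 and 59.3 CPM in T24 (si-1, si-2, control), against 6.51, 5.09 and 8.65 CPM in UMUC3 (log2 3.19 ± 0.17, edgeR adjusted p = 0.00233). Its relative FOXO3 was lower in T24, at 72.8, 69.7 and 56.4 CPM in T24 against 113, 112 and 101 CPM in UMUC3 (-0.75 ± 0.07, edgeR adjusted p = 0.00563). TP73, a transcription factor that can induce BBC3, had 10458 counts in T24 and 0 in UMUC3, at least 3378-fold higher when 3 counts over the UMUC3 libraries are taken as the limit. HUWE1, the ubiquitin ligase that acts on MCL1, was higher in T24 (0.73 ± 0.07, edgeR adjusted p = 0.00541), and BTRC, another ligase subunit, was lower (-0.63 ± 0.12, 0.0224).

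Within the wider family, BAD (1.17 ± 0.10), BCL2L13 (1.01 ± 0.13) and BIK (2.76 ± 0.37) were higher in T24, with edgeR adjusted p = 0.00420, 0.0109 and 0.0111. BNIP3 (-1.81 ± 0.05), the anti-apoptotic BCL2A1 (-3.21 ± 0.41) and BCL2L12 (-1.19 ± 0.16) were lower, with edgeR adjusted p = 0.00129, 0.00985 and 0.0108. Downstream of the pore, CYCS, which encodes cytochrome c, was at 89.3, 83.3 and 107 CPM in T24 against 191, 195 and 166 CPM in UMUC3 (-0.90 ± 0.07, edgeR adjusted p = 0.00375). VDAC2, which holds BAK1 at the outer membrane, was also lower in T24 (-1.27 ± 0.06, edgeR adjusted p = 0.00210), as was VDAC1 (-0.67 ± 0.09, 0.0103). CASP10 (adjusted p = 0.00439), ENDOG (0.74 ± 0.11, 0.0148) and CASP6 (0.90 ± 0.15, 0.0180) were higher in T24 by edgeR. In the death receptor branch the adaptors TRADD (2.87 ± 0.25) and FADD (1.05 ± 0.09) were higher in T24, with edgeR adjusted p = 0.00446 and 0.00450. TNFSF10, which encodes the ligand TRAIL, was at 7.82, 7.43 and 6.39 CPM in T24 against 0.321, 0 and 0 CPM in UMUC3 (edgeR adjusted p = 0.0354). The receptors TNFRSF10A (-1.27 ± 0.08), TNFRSF10D (-0.67 ± 0.07) and TNFRSF10B (-0.36 ± 0.06) were lower in T24, with edgeR adjusted p = 0.00276, 0.00709 and 0.0154.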

How the data were processed

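The authors deposited 1 table of raw counts per transcript for the 6 libraries (136953 transcripts). Reads were checked with FastQC 0.11.5 and handled with HISAT2 2.1.0 and StringTie 1.3.3b on hg38, per the submitters' processing notes. The counting step, the strand setting and the RNA selection are not given in the sources used here. Without a known strand setting, reads from a gene and its antisense partner cannot be told apart. Counts were summed by gene over 121915 transcripts with a gene, and 14.9% to 16.1% of counts belonged to transcripts with no gene and were left out.

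A gene entered the tests (20721 did) when 2 or more libraries had 10 or more counts of it and all together had 30. Differences, their errors and their p-values come from edgeR 4.0.16 in R 4.3.3 (TMM, 4 groups, robust quasi-likelihood F test, Benjamini-Hochberg adjustment, 0.05). The fit has 2 residual degrees of freedom, both from the knockdown pairs, and each lone control is assumed to vary like them. The labels do not tell whether the libraries are from separate cultures, and the p-values therefore reflect library-to-library spread that may be technical. The knockdown libraries of a line carry different numbers in their titles (si-1 and si-2). Their spread therefore also holds any difference between these reagents, and they are not plain repeats of 1 condition. No batch is labelled. The chi-square per degree of freedom between the knockdown libraries was 116 (T24) and 112 (UMUC3), far above the sampling noise of repeat counts of 1 library. On simulated counts for the T24 comparison, 107 of 200 genes changed 8-fold were called among 19793 genes that passed the same filter, and 195 had the right sign.

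TPM used GENCODE v29 transcript lengths. Reading frames, coordinates and overlaps are from GENCODE v29, which held 121842 of the 121915 transcripts, and promoters are from RefSeq (GRCh38.p14). Si-1 and si-2 follow the sample titles, and in T24 the column names carry the numbers the other way round.

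The members and gene lists were chosen with earlier results of these data known. The text names all 10 members and, from each of the 4 lists and each comparison, up to 3 called genes per direction with the smallest adjusted p, or, where none was called, the 2 with the smallest p. Some genes that the rule names are not reported here. For BMF and BCL2L11 it names the 3 genes with the highest r. Alternatives were DESeq2 size factors, library totals, no filter, library size over all transcripts, DESeq2 1.42.0, limma-voom 3.58.1, an additive fit, replicate blocks and leaving out each library. Protein-coding transcripts only, BCL2L1 outside the antisense overlap and BCL2L11 with the BH3 core only were added after seeing the data.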

Additional observations from a re-analysis of the deposited data

Results flagged for a closer look

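For 3 of the 10 genes every knockdown library lay on one side of the control in T24 and on the other side in UMUC3. No p-value for the difference between the lines is given for these genes, since the same comparison chose them. By edgeR's adjusted threshold 0 of the 10 genes were called for it (0.0241% of all tested genes), and by DESeq2's 2 (5.41%). For the same reason nothing is read from these counts. BMF had log2 fold changes of 2.87 in T24 and -2.86 in UMUC3, where the UMUC3 values rest on 8, 24 and 110 counts (si-1, si-2, control). MCL1 had 0.19 in T24 and -0.17 in UMUC3, and BID had 0.17 in T24 and -0.23 in UMUC3. All 3 gaps rest on 1 control library per line, and 24.4% of all tested genes had the same pattern.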

How the results depend on the processing

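The count of genes called between knockdown and control was the least stable quantity. It was 2 in T24, 13 in UMUC3 and 5 for the difference of the lines by edgeR, and 963, 1700 and 1120 by DESeq2, 0, 0 and 0 by limma-voom, and 48, 253 and 40 with no filter on low counts. With library totals in place of TMM it was 14 in T24. With protein-coding transcripts only, added after seeing the data, it was 1 in T24 and 3 for the difference. Leaving out 1 library gave 0 to 18 in T24, 0 to 16 in UMUC3, 0 to 0 for the difference and 5998 to 6470 between the lines, where all libraries gave 8034. The 18 came without the UMUC3 control. Among the 63 other pathway genes, 0 were called in the 3 knockdown comparisons, against 5, 15 and 12 by DESeq2 and 1 in UMUC3 with no filter. Between the lines 40 were called, against 26 in the additive fit and 26 to 35 with 1 library left out. The cause was not tested.

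The deviations of same-numbered knockdowns of the lines had a correlation of 0.01 over 20721 genes by titles. By column names it was -0.01, the same value with the sign turned, since the T24 libraries are swapped. Whether same-numbered knockdowns share an effect on some genes was not tested. A replicate block gave 0, 0 and 0 calls in the knockdown comparisons with either numbering, and between the lines 5074 (titles) or 5030 (column names) calls in all and 24 (column names) of the pathway genes.

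Of 553 alternative values for the 10 genes, 513 moved by less than 1 SD of the knockdown libraries and 8 changed sign. The 8 belonged to BBC3 in each comparison of knockdown, PMAIP1 in UMUC3, and BAX and BAK1 in T24. BMF ranged from 2.58 to 2.92 in T24 and from -3.76 to -2.31 in UMUC3. With 1 control per line, no alternative can leave a control out of its own comparison.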
